A study of Mus musculus with 2 samples.

Results

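The cells described here are 126 wound fibroblasts that carried several transcripts of a set of 5 genes, *Mmp3*, *Wisp2*, *Clec11a*, *Hsd11b1* and *1500015O10Rik*. They were chosen from single-cell RNA counts of dermal cells in 2 steps. A cell with at most 10% mitochondrial UMIs (unique molecular identifiers, each standing for 1 captured transcript) was taken as a fibroblast when *Pdgfra*, *Lum*, *Dpt*, *Lox* and *Postn* together had at least 10 UMIs per 10000 and *Pecam1*, *Sox10*, *Rgs5* and *Ptprc* together had no more than 2 UMIs. A fibroblast was kept as a member when at least 3 of the 5 markers had 2 or more UMIs and *Agtr2* had fewer than 2. Of 1579 control fibroblasts the rule kept 84, and of 1090 *SM22-SmoM2* fibroblasts it kept 42, out of 2878 and 1802 cells in the files. *Agtr2* left out 1 control cell and no *SM22-SmoM2* cell. The other 1495 and 1048 fibroblasts served as the comparison. These values chose the members, so what follows for the 5 markers is a description.

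Both libraries came from healed skin wounds of mice aged 4–5 weeks. All mice carried *SM22rtTA* and *tetO-Cre*, so that doxycycline switched Cre on in cells that use the *SM22* (*Tagln*) promoter, and the red reporter *R26-Tomato*. The *SM22-SmoM2* mice also carried *R26-SmoM2*, an active form of Smoothened that turns on Hedgehog signaling without a ligand. Doxycycline (20 g/kg) was given from day 1 after wounding to 3 days after re-epithelialization, the dermis was freed with 20 mM EDTA, and Tomato+ cells were sorted. Each condition is 1 library that pooled the wounds of several mice, and the files do not tell the mice apart. Differences between libraries therefore could not be tested, and an effect of the condition cannot be told apart from one of the library. All intervals are 95% and cover counting error only.

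Dermal fibroblasts make and remodel the collagen matrix of skin, and in a wound they also release proteases, chemokines and complement factors. Stromelysin-1, the product of *Mmp3*, cuts proteoglycans and activates other metalloproteinases. *Wisp2* (also *Ccn5*) encodes a CCN family protein without the C-terminal domain of its relatives, *Clec11a* a secreted growth factor for bone-forming stroma, and *Hsd11b1* the enzyme that regenerates active glucocorticoid. *1500015O10Rik* (also *Ecrg4*) encodes a secreted peptide precursor.

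The 5 genes lie apart in the genome (GRCm38). *Mmp3* (ENSMUSG00000043613) lies on chromosome 9 from 7445822 to 7455975, *Wisp2* (ENSMUSG00000027656) on chromosome 2 from 163820861 to 163833146 and *Clec11a* (ENSMUSG00000004473) on chromosome 7 from 44302687 to 44306902. *Hsd11b1* (ENSMUSG00000016194) lies on chromosome 1 from 193221634 to 193264075, and *1500015O10Rik* (ENSMUSG00000026051) on the same chromosome from 43730602 to 43742578. RefSeq places the start of *Hsd11b1* inside this span. Because the members were picked for carrying these transcripts together, the 150 bases before the RefSeq start of 4 of the genes (GRCm38.p6, the gene's own strand) are shown, with letters of 3 searched motifs in capitals.
Mmp3: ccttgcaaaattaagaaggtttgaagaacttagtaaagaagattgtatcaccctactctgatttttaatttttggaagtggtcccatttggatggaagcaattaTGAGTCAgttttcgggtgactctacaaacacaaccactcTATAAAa
Clec11a: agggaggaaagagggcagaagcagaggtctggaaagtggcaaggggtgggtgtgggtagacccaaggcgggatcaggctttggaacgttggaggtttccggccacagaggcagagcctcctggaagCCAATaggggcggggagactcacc
Hsd11b1: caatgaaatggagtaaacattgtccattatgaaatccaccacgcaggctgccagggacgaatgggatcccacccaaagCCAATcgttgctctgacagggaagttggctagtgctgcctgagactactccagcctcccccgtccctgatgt
1500015O10Rik: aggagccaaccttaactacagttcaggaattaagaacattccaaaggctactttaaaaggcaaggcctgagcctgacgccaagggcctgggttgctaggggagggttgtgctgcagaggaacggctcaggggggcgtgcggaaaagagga
The motifs were TGANTCA, the letters bound by AP-1, TATAAA and CCAAT, each searched on both strands, and none of the matches overlap. *Mmp3* (chr9:7445672-7445821, plus strand) held TGANTCA from −46 to −40 and TATAAA from −7 to −2. *Clec11a* (chr7:44306960-44307109, minus strand) held CCAAT from −24 to −20, and *Hsd11b1* (chr1:193242361-193242510, minus strand) held it from −72 to −68. *1500015O10Rik* (chr1:43730452-43730601, plus strand) held none of the 3. Of 32851 mouse promoter windows of this length, 4.24% held TGANTCA, 7.57% TATAAA and 24.5% CCAAT, and no motif was shared by all 4 genes. *Wisp2* is named only.

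Each of the 5 genes was several-fold more abundant in members than in the other fibroblasts, as the rule requires. *Mmp3* was the most abundant marker, with 1237 CPM (UMIs per 1000000 over the summed cells) in control members and 1119 CPM in *SM22-SmoM2* members, against 186 and 60.2 CPM in the other fibroblasts. *Wisp2* had 399 and 440 CPM in members and 47.6 and 14.3 CPM in the others. *Clec11a* had 244 and 219 CPM against 21.7 and 34.3 CPM. *Hsd11b1* had 153 and 110 CPM against 24.4 and 29.6 CPM, and *1500015O10Rik* had 242 and 336 CPM against 34.1 and 19.5 CPM.

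**Figure D1:**
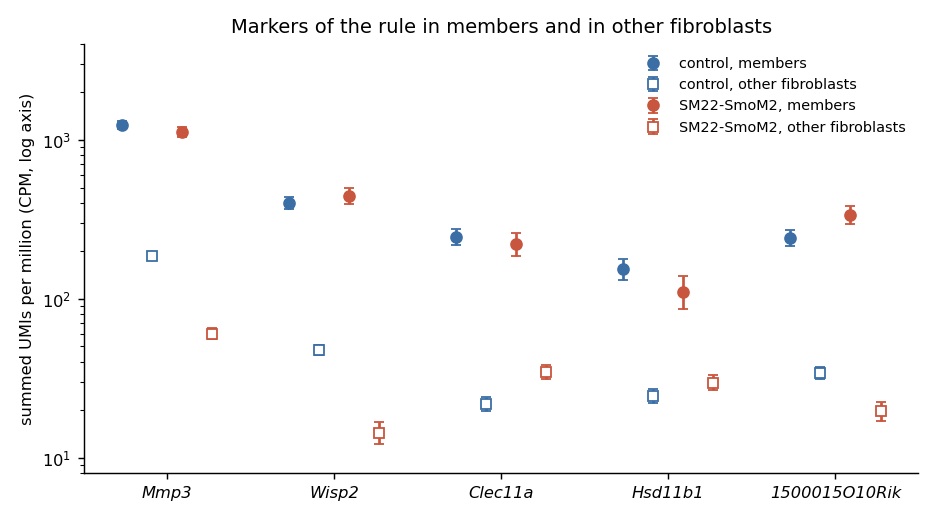
Levels of the 5 genes that chose the members, in CPM on a log axis. Filled circles are members (84 control, 42 *SM22-SmoM2*), open squares are other fibroblasts, and bars are 95% Poisson intervals of the summed UMIs. *Mmp3* reached 1237 and 1119 CPM in members and was the highest of the 5 in every group.

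Single members differed in which markers they carried. *Mmp3* had 2 or more UMIs in 74 of 84 control members (88.1%) and 37 of 42 *SM22-SmoM2* members (88.1%), with a median of 12.5 and 7 UMIs per cell and up to 76 and 101. *Hsd11b1* had 2 or more UMIs in 41 control members (48.8%) and 13 *SM22-SmoM2* members (31.0%), the lowest share of the 5 in both libraries. *Mmp3* and *Wisp2* were found together in 49 control and 31 *SM22-SmoM2* members. Most members were just inside the rule. Exactly 3 markers were met by 62 control and 22 *SM22-SmoM2* members, 4 by 17 and 17, and all 5 by 5 and 3. Members with exactly 3 had 2186 and 1910 CPM of the 5 genes together. Just outside, 124 control and 51 *SM22-SmoM2* fibroblasts met exactly 2 markers and had 1120 and 893 CPM. Without thinning, 90.5% of control members and 25.8% of the other control fibroblasts had an *Mmp3* UMI, and 6.07% of endothelial cells, where the gene is not expected (median depths 13462.5, 9252 and 9598 UMIs). After thinning each cell to 3000 UMIs the shares were 78.6%, 15.7% and 1.87%, and in *SM22-SmoM2* cells 73.8%, 6.28% and 0 of 224 (up to 1.63%), against 92.9%, 11.8% and 2.14% before it (median depths 15733, 10106 and 7212 UMIs).

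Members made up 5.32% of control fibroblasts (4.27–6.54, exact binomial) and 3.85% of *SM22-SmoM2* fibroblasts (2.79–5.17), and the intervals overlap. Under the limit on other lineages described below, the shares were 7.54% (6.039–9.269) and 4.50% (3.263–6.036). Those intervals narrowly fail to overlap, and the difference was not tested. The rule counts UMIs, and members were deeper cells. Median depth was 13462.5 and 15733 UMIs in members and 9252 and 10106 UMIs in the other fibroblasts. With fibroblasts thinned to 5000 UMIs, which left out 242 control and 175 *SM22-SmoM2* cells as too shallow, 26 of 1337 control fibroblasts (1.94%) and 15 of 915 *SM22-SmoM2* fibroblasts (1.64%) met the rule. At 8000 UMIs, with 651 and 386 cells left out, the shares were 4.96% and 3.27%. Mitochondrial UMIs were a median of 1.82% and 1.75% in members. By *Xist* and Y-linked transcripts, control members were 50 male, 20 female, 5 with both and 9 with neither, whereas *SM22-SmoM2* members were 37 male and 5 with neither. The part of sex in the library differences below was not tested. Values of the genes ranked below were repeated in male cells alone, where 17 of 42 left their main counting interval and none changed sign. Cell barcodes could not be tied to the columns of the matrices, so barcodes shared between the libraries were not counted.

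The gate chose the cells as fibroblasts, so the gate genes do not check the label. Of the 12 fibroblast markers listed, which include them, all were detected in members of both libraries, with *Col1a1*, which the gate did not use, the most abundant at 30539 and 25617 CPM. Markers of other lineages were low with 2 exceptions. In the control library, 1 member held 283 UMIs per 10000 of 10 keratinocyte genes and another held 424 per 10000 of 12 immune genes. These 2 cells made up most of the keratinocyte list in control members (723 CPM, 8 of 10 genes detected, *Krt10* at 466 CPM) and of the immune list (627 CPM, 11 of 12 genes detected, *Cd74* at 274 CPM), while *SM22-SmoM2* members had 68.0 and 27.2 CPM of the lists, with 8 and 4 genes at 0. Endothelial markers had 56.6 and 37.8 CPM in members (67.5 and 61.9 CPM in the others), and mural and muscle markers 133 and 52.9 CPM (118 and 69.4 CPM). Of 10 adipocyte markers, 7 and 8 were at 0 in members, and *Lpl* gave nearly all of the list's 684 and 106 CPM. Among the other fibroblasts, 489 control and 157 *SM22-SmoM2* cells held more than 20 UMIs per 10000 of another lineage, and in 476 and 151 of them the Schwann list was the highest. That list had 1149 and 604 CPM in the other fibroblasts, and 253 and 153 CPM in members, where *Pmp22* gave most of it and *Sox10*, which the gate limits, was at 0. The part of these markers in the comparisons below was not tested. Values are therefore also given for the 82 and 42 members and 1006 and 891 other fibroblasts under this limit of 20 per 10000, which was set after these cells had been seen.

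Fibroblasts were then clustered without the 5 markers and *Agtr2*, to see whether the members share more than the rule. With 15 sub-clusters, 89 of the 126 members (70.6%) lay in 1 sub-cluster of 360 cells, 53 from the control and 36 from the *SM22-SmoM2* library. That sub-cluster was 13.5% of all fibroblasts. Members were 24.7% of its cells, so most cells with this wider profile did not meet the rule. Its leading genes by fold were *Angptl1*, *Ctla2a*, *Mmp3*, *Cilp*, *Fbln7*, *Wisp2*, *Eln* and *Mmp13*. A further 18 members lay in a sub-cluster of 42 cells, all from the control library. Its leading genes by fold were mostly epidermal (*BC100530*, *Lgals7*, *Krt1*, *Stfa3*, *Krtdap*, *Ly6d* and *Sfn*, with *C4b* among them), so it was given no name. In control members at least 98.1% of the UMIs of these 7 epidermal genes came from 1 cell, and members under the lineage limit had 93.7 CPM of the keratinocyte list. The other 19 were spread over 6 sub-clusters. With 20 sub-clusters, the 2 that held most members took 82 and 23 of them, and the smaller one again had 48 control cells of 49. At that setting 87 control cells led by *Angptl1*, *Agtr2* and *Fbln7* formed a sub-cluster of their own, with 2 members. With 10 sub-clusters the leading ones took 56 and 45 members and the small control group was not separated. The first of these had 668 cells led by *Crabp1*, *Prss35*, *Igfbp2* and *Mmp11*, and members were 8.38% of them. The second held 37 control and 8 *SM22-SmoM2* members. At 15 and 20 sub-clusters, though not at 10, control members thus fell mainly into 2 groups. At 15 only 1 of these had members in the *SM22-SmoM2* library, and at 20 the smaller held 1 such member. Differences between libraries are therefore given below for all members and, for most of the genes named, also for the first sub-cluster. With the lineage limit applied, the first sub-cluster held 53 control and 36 *SM22-SmoM2* members (median depth 14134 and 14948.5 UMIs) and the second 17 control members (8768 UMIs). By sex-linked transcripts, 10 of the 53 control cells of the first were female and 35 male, and 9 of the 17 cells of the second were female and 3 male.

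The 2 groups of control members differed in the genes named here, which were picked after their values had been seen. Members of the second sub-cluster had more *Mgp*, an inhibitor of calcification (4348 against 604 CPM), *Apoe*, a lipid carrier (2504 against 175 CPM), *Gsn*, an actin-severing protein (3942 against 637 CPM), and the chemokines *Cxcl12* (1217 against 217 CPM) and *Cxcl14* (469 against 10.9 CPM). Among these 17 cells the top cell of each gene gave 30.8% of the *Mgp*, 28.1% of the *Apoe* and 35.1% of the *Cxcl14* UMIs. *Cxcl14* was found in 8 of them. *C4b*, a complement component, had 754 against 35.3 CPM and was found in 14 of 17 cells against 14 of 53. *Lbp*, which binds bacterial lipopolysaccharide, and *Gdf10*, a member of the TGF-beta family, had 393 and 260 CPM against 29.9 and 16.3 CPM. Members of the first sub-cluster had more *Ctla2a*, a protease inhibitor (1277 against 209 CPM), the proteoglycans *Aspn* (3026 against 494 CPM) and *Fmod* (88.3 against 6.34 CPM), *Col12a1* (432 against 38.0 CPM), and *C1qtnf3* (547 against 12.7 CPM). The imprinted transcripts *H19* and *Mest* had 353 and 649 CPM in the first and 31.7 and 108 CPM in the second. *Prss35* had 139 CPM in the first and 0 UMIs in the second (up to 23.4 CPM). Of 2448 genes with at least 50 UMIs over both groups, 88 (3.59%) were 2-fold or more higher and 250 (10.2%) lower in the second. These genes shaped the sub-clusters, so the differences are a description. Of the genes that chose the members, in the second and the first *Mmp3* had 2428 and 1334 CPM, *Clec11a* 475 and 221 CPM, *Wisp2* 425 and 478 CPM and *1500015O10Rik* 158 and 325 CPM, and the log2 ratio of *Hsd11b1* was 0.44.

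**Figure D2:**
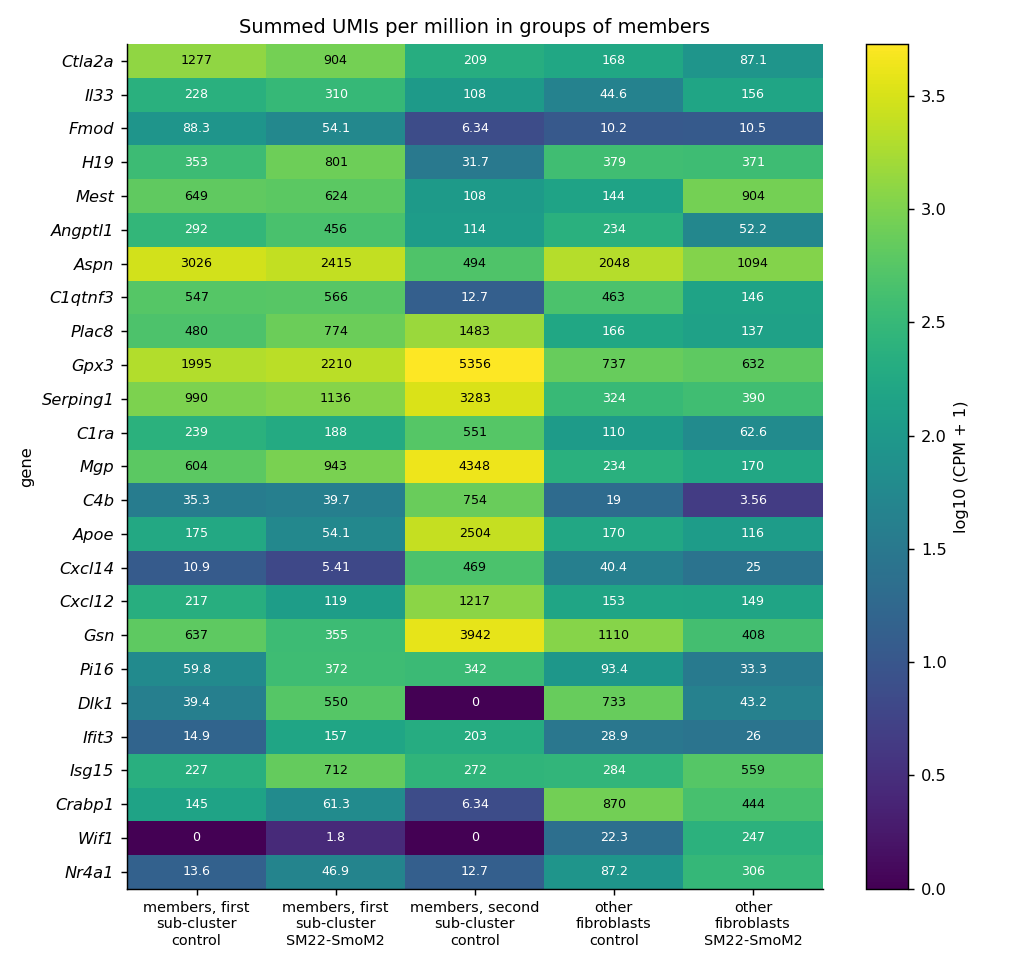
Levels of 25 genes in 5 groups of cells under the lineage limit, as CPM printed in each cell and as colour on a log10 (CPM + 1) scale. Columns are 53 control and 36 *SM22-SmoM2* members of the first sub-cluster, 17 control members of the second, and 1006 control and 891 *SM22-SmoM2* other fibroblasts. *Mgp*, *C4b*, *Apoe* and *Gsn* were highest in the second sub-cluster, *Ctla2a* and *Fmod* in the first, and *Crabp1* and *Wif1* in the other fibroblasts.

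Next, members were compared with the other fibroblasts of their own library. Of 9915 genes with at least 50 UMIs over both sides in each library, 85 were 2-fold or more higher in members in both (0.857%) and 524 were lower (5.28%). Under the lineage limit these were 62 of 9515 (0.652%) and 265 (2.79%). The median log2 ratio of all genes was −0.16 in control and −0.18 in *SM22-SmoM2*, so members sat slightly below the others for a typical gene. In control alone 2.65% of genes were 2-fold higher and 11.5% lower, and in *SM22-SmoM2* alone 4.97% and 15.9%. Under the limit these were 2.06% and 7.09% in control and 4.8% and 14.3% in *SM22-SmoM2*. The same cells gave the rule, and nothing is tested here.

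The 15 genes that stood highest in members over both libraries were *Ctla2a*, *Mgp*, *Fmod*, *Col6a5*, *Plac8*, *C4b*, *Gpx3*, *Ccl8*, *Serpina3n*, *Serping1*, *Fam198a*, *Il15ra*, *Pdgfrl*, *C1ra* and *Il33*. All 15 also had ratios above 2-fold in both libraries under the lineage limit, where *Col6a5* had fewer than 50 UMIs in *SM22-SmoM2*. *Ctla2a* (chromosome 13, 60934155 to 60936625) had 847 CPM in control members and 138 CPM in the others, a log2 ratio of 2.62 (2.51–2.73), and 782 and 80.3 CPM in the other library, a ratio of 3.28 (3.13–3.44). It was found in 37 of 84 and 32 of 42 members, 1 cell gave 22.6% and 25.2% of its UMIs, and its close relatives in the same gene cluster make its counts uncertain. *Mgp* (chromosome 6, 136872435 to 136875823) had 1067 and 190 CPM in control (2.49, 2.39–2.59) and 827 and 156 CPM in *SM22-SmoM2* (2.41, 2.27–2.55). *Gpx3*, a secreted glutathione peroxidase (chromosome 11, 54902453 to 54910377), had 2158 and 602 CPM in control (1.84, 1.78–1.91) and 2052 and 584 CPM in *SM22-SmoM2* (1.81, 1.73–1.90), and was found in 81 of 84 and 42 of 42 members. *Plac8* had 556 and 137 CPM in control (2.02, 1.90–2.15) and 714 and 128 CPM in *SM22-SmoM2* (2.48, 2.33–2.63). Several of these genes drew on the 2 groups of members unequally. *Mgp*, *C4b*, *Gpx3*, *Serping1* and *Plac8* were 2-fold or more higher in control members of the first sub-cluster than in the other fibroblasts, except for *C4b* (35.3 against 19.03 CPM), and higher still in those of the second. The 12 control members outside both groups had 28.2 CPM of *Plac8* and 8.07 CPM of *C4b*.

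**Figure D3:**
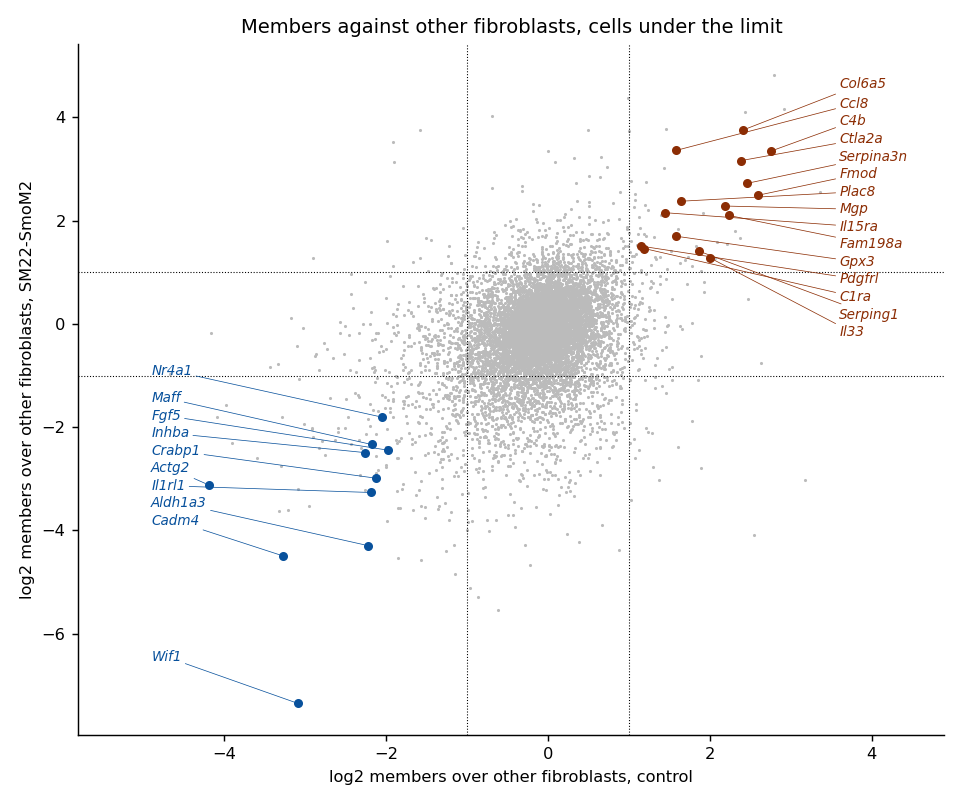
Log2 ratio of summed CPM of members over other fibroblasts, control on the x axis and *SM22-SmoM2* on the y axis, for cells under the lineage limit. Grey points are genes, dotted lines mark 2-fold, a count of 0 enters as 3 UMIs, red names are the 15 genes highest in members and blue names the 10 lowest. Of the named genes, *Wif1* lies lowest on the y axis, at −7.35, and *Col6a5* highest, at 3.76.

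Complement genes stood higher in members as a group. Of 13 listed genes compared in control, 11 were 2-fold or more higher (2.65% of all genes), with a median log2 ratio of 1.82 against −0.16 for all genes, and in *SM22-SmoM2* 6 of 11 (4.97% of all genes) with a median of 1.04 against −0.18. Under the lineage limit these were 8 of 10 and 6 of 8 (2.06% and 4.8% of all genes), and *C1qa*, *C1qb* and *C1qc*, which are made by macrophages, were no longer among them. In control members 97.0%, 91.4% and 94.4% of the UMIs of these 3 genes came from 1 cell. *Serping1*, which encodes the inhibitor of C1 (chromosome 2, 84765387 to 84775444), was the most abundant, with 1182 and 268 CPM in control (2.14, 2.05–2.23) and 1037 and 358 CPM in *SM22-SmoM2* (1.54, 1.42–1.65), and was found in every member. The C1 proteases *C1ra* and *C1s1* had 247 and 317 CPM in control members against 90.1 and 130 CPM, and 172 and 265 CPM against 57.5 and 92.9 CPM in *SM22-SmoM2*. *C2* had 228 and 166 CPM in members against 70.0 and 80.8 CPM. *C4b* (chromosome 17, 34728380 to 34743882), whose sequence is close to that of *C4a*, had 130 and 26.0 CPM in control (2.32, 2.05–2.59) and 36.3 and 6.60 CPM in *SM22-SmoM2* (2.46, 1.73–3.14). *Cfb*, a protease of the alternative pathway, had 16.9 and 39.3 CPM in members against 4.78 and 4.79 CPM.

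Chemokines and cytokines did not move as 1 group. In control members 7 of 20 were 2-fold higher and 5 lower (2.65% and 11.5% of all genes), and in *SM22-SmoM2* 7 of 18 higher and 2 lower (4.97% and 15.9%), the last count being near that of all genes. *Ccl8*, a monocyte chemokine, had 291 and 333 CPM in members against 77.9 and 31.7 CPM, log2 ratios of 1.90 (1.73–2.08) and 3.39 (3.14–3.64). *Il33*, an alarmin held in the nucleus, had 177 and 378 CPM against 39.9 and 145 CPM. The eosinophil chemokine *Ccl11* had 187 and 148 CPM against 78.2 and 23.2 CPM. *Cxcl1* and *Cxcl2*, neutrophil chemokines, were lower in control members, with 603 and 217 CPM against 1275 and 511 CPM. In *SM22-SmoM2* members they had 1018 and 373 CPM against 1340 and 403 CPM.

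The small leucine-rich proteoglycans had a median log2 ratio of 0.86 in control (2 of 12 past 2-fold higher, *Fmod* and *Podn*) and 1.21 in *SM22-SmoM2* (8 of 12), against −0.16 and −0.18 for all genes, of which 2.65% and 4.97% were higher. *Dcn* was their most abundant gene, with 9488 and 6084 CPM in members against 5862 and 2739 CPM, and *Fmod* had the widest margin in both libraries, with 59.1 and 59.0 CPM against 10.1 and 9.67 CPM. Of fibrillar and associated collagens 1 of 17 was higher and 1 lower in control, and 5 of 18 and 1 in *SM22-SmoM2*, and only *Col6a5* was past 2-fold higher in both, at 27.9 and 34.8 CPM against 4.65 and 2.44 CPM. *Col14a1* had 420 and 585 CPM against 304 and 238 CPM. Basement membrane genes had 0 of 15 higher and 4 lower in control, and 1 of 13 and 4 in *SM22-SmoM2* (11.5% and 15.9% of all genes were lower). Of the MMP and ADAMTS proteases, *Mmp3* included, 4 of 27 were higher and 5 lower in control, and 8 of 24 and 6 in *SM22-SmoM2*, the lower counts being not far from those shares of all genes. *Mmp3* chose the members, so its place among the higher genes in both libraries was set by the rule. The abundant *Mmp2* had 960 and 903 CPM against 712 and 388 CPM and *Mmp14* had 873 and 510 CPM against 743 and 436 CPM. *Mmp13*, collagenase-3, had 64.2 CPM in control members against 31.2 CPM and 22.7 CPM in *SM22-SmoM2* members against 63.0 CPM. The inhibitor *Serpina3n* had 113 and 142 CPM against 32.7 and 26.4 CPM, and *Sod3*, extracellular superoxide dismutase, had 125 and 132 CPM against 61.1 and 7.68 CPM.

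Some contractile, papillary, immediate early and cycling genes were lower in members. *Tagln*, the gene whose promoter drives the transgene, had 40.5 CPM in control members and 126 CPM in the others (−1.63, −2.08 to −1.22), and 95.3 and 197 CPM in *SM22-SmoM2* (−1.05, −1.44 to −0.69). *Acta2*, smooth muscle actin, had 149 and 129 CPM against 206 and 191 CPM, within 2-fold. Of 13 contractile genes compared in control 3 were 2-fold lower and none higher, and likewise 3 of 12 in *SM22-SmoM2*, which is not far from the 11.5% and 15.9% of all genes that were lower. Of 9 and 10 papillary genes compared, 4 and 5 were 2-fold lower and none higher. *Crabp1*, a retinoic acid binder of the upper dermis, had 194 and 55.9 CPM against 701 and 409 CPM, and 1 cell gave 40.4% of its UMIs in control members. Immediate early genes, which also respond to tissue dissociation, were 2-fold lower for 6 of 20 genes in control and 11 of 20 in *SM22-SmoM2*, with *Junb* at 491 and 526 CPM against 1309 and 1787 CPM and *Nr4a1* at 21.1 and 87.7 CPM against 96.1 and 297 CPM. Cell cycle genes were lower for 6 and 9 of 19, with *Top2a* at 21.9 and 9.07 CPM against 38.1 and 58.7 CPM. None of the immediate early or cell cycle genes was 2-fold higher in either library. Of all genes, 11.5% and 15.9% were 2-fold lower. The immediate early list summed to 8358 CPM in other control fibroblasts and 7577 CPM under the lineage limit, against 5393 and 5364 CPM in control members. The cell cycle list summed to 1111 and 1007 CPM there, against 580.9 and 595.5 CPM in control members. Among cells within the lineage limit, the lowest genes were *Wif1*, *Crabp1*, *Aldh1a3*, *Cadm4*, *Actg2*, *Il1rl1*, *Fgf5*, *Inhba*, *Maff* and *Nr4a1*. Without the limit the lowest genes included *Cadm4*, *Gatm*, *Fgf5*, *Crym*, *Egfl8*, *Wif1*, *Sostdc1*, *Acot1* and *Plekhb1*, beside the Schwann list of the other fibroblasts given above.

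Hedgehog activation was the purpose of the *SM22-SmoM2* model, so the targets of the pathway were read in members. Smoothened activates the GLI factors, and *Ptch1*, *Gli1* and *Hhip* are direct targets that report the activity. *Ptch1*, *Gli1* and *Gli2* together had 27.02 CPM in control members (18.5–38.1, 32 UMIs) and 24.2 CPM in *SM22-SmoM2* members (13.8–39.3, 16 UMIs). In the other fibroblasts they had 20.5 CPM (18.3–22.8) and 170 CPM (162–178). After thinning to 5000 UMIs, 14 of 81 control members (17.3%, 9.78–27.3) and 6 of 42 *SM22-SmoM2* members (14.3%, 5.43–28.5) had a UMI of the 3 genes, against 8.68% and 44.1% of the other fibroblasts. Endothelial cells, taken as a reference, had 7.41% and 8.81% (median depths before thinning 9598 and 7212 UMIs). They were sorted as Tomato+ too and may carry SmoM2 in that library, so their level is not a known background. The intervals of members overlap between the libraries. The interval of *SM22-SmoM2* members holds the endothelial share of that library, so these UMIs are not distinguished from the endothelial level. The interval of control members lies above the endothelial share of 7.41% in theirs, while the interval of that share (5.34–9.95) overlaps it. In the *SM22-SmoM2* library *Ptch1* had 16.6 CPM in members and 130 CPM in the others (−2.96, −3.97 to −2.12). *Hhip* had 0 UMIs in members of both libraries and 29.1 CPM in the other *SM22-SmoM2* fibroblasts. *Smo* had 43.1 and 34.8 CPM in members, a log2 ratio of −0.31 (−1.09 to 0.43).

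**Figure D4:**
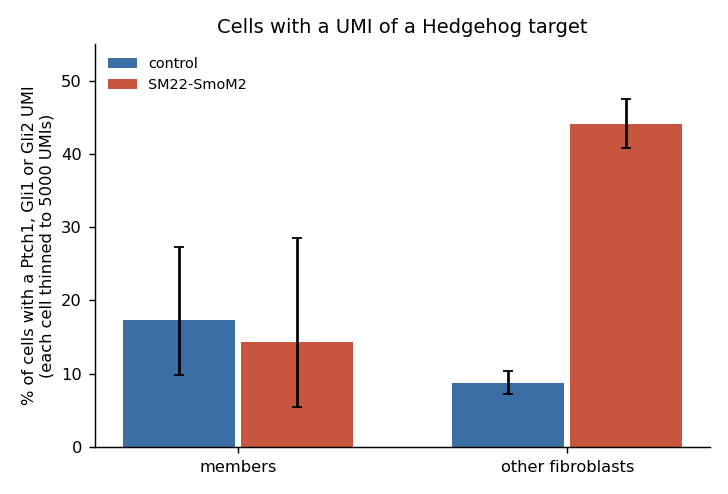
Percent of cells with a *Ptch1*, *Gli1* or *Gli2* UMI after thinning each cell to 5000 UMIs, for members (81 control, 42 *SM22-SmoM2*) and other fibroblasts. Bars are shares from 0 and lines are exact 95% binomial intervals. Members of both libraries stood at 17.3% and 14.3%, and the other *SM22-SmoM2* fibroblasts at 44.1%.

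Genes of the dermal papilla, the mesenchymal cluster that induces hair follicles, were also lower in members. The list is one the study used on these samples, so its direction is not independent evidence. Of 10 signature genes compared in *SM22-SmoM2*, 9 were 2-fold or more lower in members, with a median log2 ratio of −2.72, and in control 6 of 9, against 15.9% and 11.5% of all genes. *Wif1*, a secreted Wnt inhibitor (chromosome 10, 121033960 to 121100650), had 0 UMIs in 84 control members and 1 UMI in 42 *SM22-SmoM2* members (1.51 CPM), against 18.98 and 226 CPM in the others. *Bmp3* had 1 and 2 UMIs in members, against 7.04 and 34.3 CPM. Within the lineage limit, 3 of 8 signature genes were lower in control members and 10 of 10 in *SM22-SmoM2* members, against 7.09% and 14.3% of all genes.

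Lastly, members of the *SM22-SmoM2* library were compared with those of the control library. Of 4308 genes with at least 50 UMIs over both, 83 (1.93%) were 2-fold or more higher and 156 (3.62%) lower. Between the other fibroblasts of the same libraries, 3.5% of 11698 genes were higher and 4.89% lower. More genes reached 50 UMIs there, so the shares rest on different sets of genes. In the first sub-cluster alone, 78 of 3293 genes (2.37%) were higher and 79 (2.4%) lower, so the numbers of higher and lower genes were nearly equal there. Under the lineage limit 2.05% of genes were higher and 3.31% lower between members, and 4.5% and 4.54% between the other fibroblasts. For the markers of the rule, the log2 ratio in the first sub-cluster was −0.06 (−0.20 to 0.09) for *Mmp3*, −0.18 (−0.43 to 0.06) for *Wisp2*, 0.03 (−0.32 to 0.37) for *Clec11a*, −0.42 (−0.88 to 0.03) for *Hsd11b1* and −0.02 (−0.30 to 0.27) for *1500015O10Rik*. Over all members the ratios were −0.14 (−0.27 to −0.02), 0.14 (−0.08 to 0.35), −0.15 (−0.45 to 0.14), −0.47 (−0.88 to −0.07) and 0.47 (0.21 to 0.73) in the same order. The rule asked for the same UMIs of these genes in both libraries, so nothing is read from their levels.

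*Pi16*, *Dlk1*, *Plagl1*, *H19* and *Fibin* were among the genes higher in *SM22-SmoM2* members. *Pi16*, a marker of adventitial fibroblasts (chromosome 17, 29317680 to 29330593), had 92.9 CPM in control members and 339 CPM in those with SmoM2, a log2 ratio of 1.87 (1.53–2.21), and 59.8 and 372 CPM in the first sub-cluster (2.64, 2.16–3.14). In the other fibroblasts it had 76.2 and 30.5 CPM, a ratio of −1.32, and in control members of the second sub-cluster 342 CPM. Of 10 adventitial genes compared in the first sub-cluster, only *Pi16* was 2-fold higher (2.37% of all genes). The median log2 ratio of these genes was 0.09. *Dlk1*, an imprinted Notch-like ligand of lower dermis and preadipocytes (chromosome 12, 109452823 to 109463336), had 188 and 499 CPM in members (1.41, 1.16–1.66) and 39.4 and 550 CPM in the first sub-cluster (3.804, 3.25–4.41), while the other fibroblasts had 599 and 39.7 CPM. It was found in 10 of 53 control and 19 of 36 *SM22-SmoM2* cells of that sub-cluster, and 1 cell gave 48.3% of its UMIs there in control and 25.9% in *SM22-SmoM2*. With 2 of the 5 markers asked for in place of 3, the ratio of *Dlk1* turned to −0.35. Of 8 genes of reticular dermis and hypodermis compared in the first sub-cluster, only *Dlk1* was 2-fold higher and only *Cpe* lower. Their median log2 ratio was 0.24. *H19* and *Plagl1*, both imprinted, had 353 and 76.1 CPM in control cells of the first sub-cluster and 801 and 251 CPM in *SM22-SmoM2* cells, with ratios of 1.18 (0.96–1.41) and 1.72 (1.26–2.19), and over all members 1.70 and 1.68. Their ratios in the other fibroblasts were 0.17 and 0.00. *Fibin* had 144 and 422 CPM in members, 175 and 467 CPM in the first sub-cluster and 196 and 125 CPM in the others. *Thbs4*, a matricellular protein of tendon, had 36.3 and 96.8 CPM in members, 42.1 and 103 CPM in the first sub-cluster and 113 and 10.0 CPM in the others. Of the 42 *SM22-SmoM2* members, 12 (28.6%) also had 2 or more UMIs in at least 2 of *Agtr2*, *Angptl1* and *Thbs4*, and they were 54.5% of the 22 such fibroblasts of that library. The same held for 1 of 84 control members, 1% of 100 such cells. The rule limits *Agtr2*, so members can meet this only through *Angptl1* and *Thbs4*, whereas the 100 control cells held 209 *Agtr2* UMIs and the 22 *SM22-SmoM2* cells none, and nothing is read from the contrast. Genes of 3 other fibroblast groups were counted in the same way. For *Crabp1*, *Mmp11* and *Prss35* they were met by 20 control members (23.8%, and 4.75% of such cells) and 4 *SM22-SmoM2* members (9.52%, and 2.04%), beside 421 of all 1579 control and 196 of all 1090 *SM22-SmoM2* fibroblasts. For *Penk*, *Cldn1* and *Mest* they were met by 16 control members (19.05%, and 23.9% of such cells) and 7 *SM22-SmoM2* members (16.7%, and 2.24%), beside 67 and 313 of all fibroblasts. For *Wnt2*, *Dlk1* and *Pamr1* they were met by 7 (8.33%, and 2.27%) and 3 (7.14%, and 20%), beside 309 and 15 of all fibroblasts. Cells of these groups and the *Agtr2* group that were not members also carried markers of the rule. Across the groups *Hsd11b1* ranged from 2.56 to 161 CPM in control, against 153 CPM in members. *Mmp3* ranged from 32.4 to 779 CPM in *SM22-SmoM2*, against 1119 CPM in members.

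Some interferon-induced genes were higher in *SM22-SmoM2* members. Of 15 listed genes compared, 6 were 2-fold or more higher (1.93% of all genes) and none lower, with a median log2 ratio of 0.81 against −0.04 for all genes, and in the first sub-cluster 7 of 14 (2.37% of all genes) with a median of 1.06. None of 18 was 2-fold higher between the other fibroblasts, with a median of −0.00, or 0.33 under the lineage limit. Whether members and others differ was not tested. *Isg15*, a ubiquitin-like modifier, had 282 and 665 CPM in members (1.24, 1.03–1.45) and was found in 34 of 53 and 33 of 36 cells of the first sub-cluster. *Ifit1* had 65.9 and 183 CPM (1.47, 1.05–1.90), and *Ifit3* 59.9 and 133 CPM (1.15, 0.68–1.62). In the first sub-cluster *Ifit3* had 14.9 and 157 CPM, whereas control members of the second had 203 CPM. *Usp18*, which removes ISG15, had 27.02 and 75.6 CPM in members and 17.7 and 83.0 CPM in the first sub-cluster, and *Ube2l6*, an enzyme that conjugates it, had 79.4 and 231 CPM and 74.7 and 247 CPM. The transcripts *Gm8797* and *Mndal*, both with close copies in the genome, were also higher, with ratios of 1.66 and 1.72 in the first sub-cluster, but their ratios in the other fibroblasts were 1.72 and 1.19.

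Among chemokines, *Ccl7* had 276 and 632 CPM in members (1.20, 0.98–1.41), 265 and 709 CPM in the first sub-cluster, and 372 and 100 CPM in the others (−1.89). In the first sub-cluster *Cxcl1* had 337 and 1062 CPM and *Cxcl2* 57.0 and 429 CPM, although 1 cell gave 45.4% of the *Cxcl2* UMIs in *SM22-SmoM2* and 45.2% in control. Over all members *Cxcl1* had 603 and 1018 CPM, within 2-fold, and the levels of *Cxcl2* given above were also within 2-fold. *Fosb* and *Nr4a1*, which are immediate early genes, had log2 ratios of 1.56 (1.05–2.08) and 2.06 (1.36–2.79) in members, 1.93 and 1.79 in the first sub-cluster (*Nr4a1* with fewer than 50 UMIs), and 1.10 and 1.63 in the others. *Gfod2* ranked highest of all, at 9.29 and 60.5 CPM, but 95% of its *SM22-SmoM2* UMIs came from 1 cell.

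**Figure D5:**
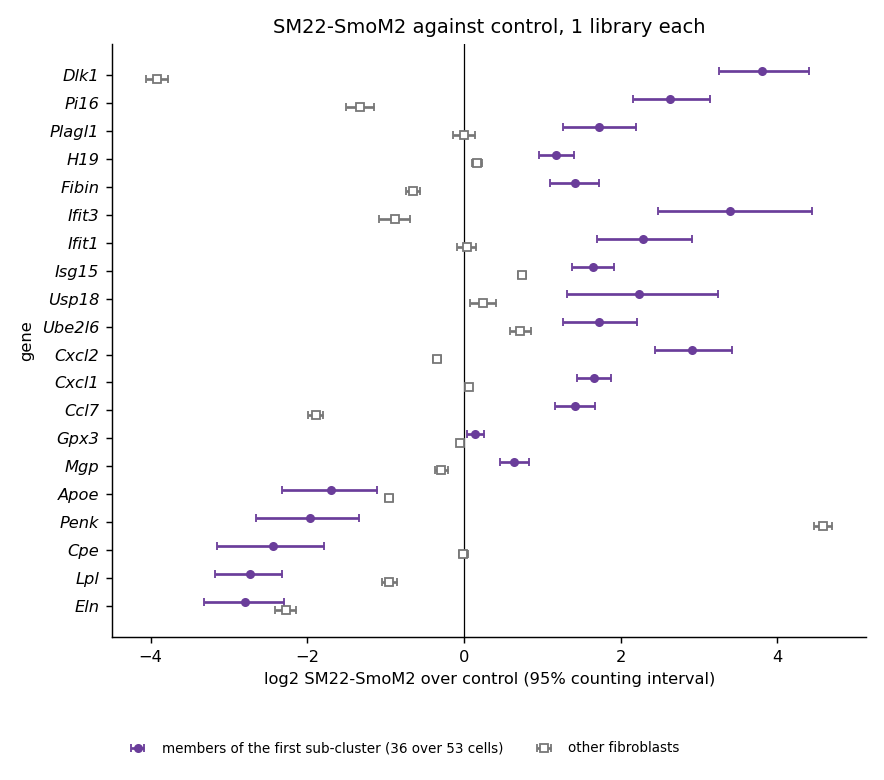
Log2 ratio of summed CPM, *SM22-SmoM2* over control, for 20 genes. Filled circles are members of the first sub-cluster under the lineage limit (36 over 53 cells). Open squares are all other fibroblasts, without that limit, and lines are exact 95% counting intervals. Ratios of other fibroblasts under the limit are not drawn, so the sides of 0 below hold without it. *Dlk1*, *Pi16*, *Fibin*, *Ifit3*, *Cxcl2*, *Ccl7*, *Mgp* and *Penk* lie on opposite sides of 0 in the 2 kinds of cells with both intervals away from 0, a difference that was not tested.

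The genes lowest in *SM22-SmoM2* members depended on a few control cells. The 12 lowest were *Lgals7*, *BC100530*, *Spp1*, *Krtdap*, *Krt1*, *Stfa3*, *Cd74*, *Ly6d*, *Perp*, *Calm4*, *Sfn* and *Aqp1*, mostly genes of keratinized epidermis or, for *Cd74*, of antigen presentation. For 11 of the 12, between 93.1% and 100% of the control UMIs came from 1 cell, and for *Aqp1* 36.2%. Among members within the lineage limit, the lowest were *Spp1*, *Aqp1*, *Cxcl5*, *Apoe*, *Lpl*, *Cpe*, *Eln*, *Igfbp2*, *Sfrp4*, *Cxcl14*, *Tnfaip6* and *Mmp11*. In the first sub-cluster alone the ratios were smaller for *Sfrp4* (−0.78), *Tnfaip6* (−0.91) and *Mmp11* (−1.24), and *Cxcl14* had 8 and 3 UMIs. Control members of the second sub-cluster had 1078 CPM of *Sfrp4* and 469 CPM of *Cxcl14*. *Spp1*, osteopontin, had 452 UMIs in control members and 2 in *SM22-SmoM2* members, and 98.0% of the control UMIs lay in 1 cell. *Cxcl5*, a neutrophil chemokine, drew 71.1% of its control UMIs from 1 cell, and *Eln* 38.5%. *Lpl*, lipoprotein lipase, had 669 and 103 CPM in members (−2.70, −3.08 to −2.34) and 623 and 93.8 CPM in the first sub-cluster, where it was found in 48 of 53 and 22 of 36 cells. In the other fibroblasts it had 207 and 107 CPM, a ratio of −0.95. *Eln*, elastin, had 438 and 78.6 CPM (−2.48, −2.92 to −2.07), with a ratio of −2.79 in the first sub-cluster, where 1 cell gave 58.8% of the control UMIs, and −2.27 in the others. *Cpe*, carboxypeptidase E, had 265 and 36.3 CPM (−2.87, −3.53 to −2.27), with a ratio of −2.44 in the first sub-cluster and −0.01 in the others. *Penk*, an opioid precursor, is not among the lowest over all members, where it had 128 and 132 CPM, a ratio of 0.04 (−0.35 to 0.44). In the first sub-cluster alone its ratio was −1.97 (−2.65 to −1.34), and in the others 4.59. *Apoe*, at 744 and 54.4 CPM in all members, was 175 and 54.1 CPM in the first sub-cluster, and 25.2% of its control UMIs came from 1 cell.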

How the data were processed

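Per the labels and the methods of the study, Tomato+ dermal cells were captured with 10x Genomics 3′ kits (v2), and reads were demultiplexed with bcl2fastq and counted against mm10 with Cell Ranger, with PCR duplicates collapsed by UMI. The authors deposited 1 matrix of raw UMI counts per library for 27998 genes. Tool versions are not given in the sources used here. Cells were classified by the rule above. Members and gene lists were chosen with earlier results of these data known. Counts were summed per class and library and scaled to CPM, log2 ratios carry exact conditional intervals, levels Poisson and shares Clopper-Pearson intervals, all at 95% and for counting error only. Genes needed 50 UMIs over both sides, "past 2-fold" is a log2 ratio of at least 1 in size, and a 0 was replaced by 3 UMIs, with no ratio where both sides had 3 or fewer. Named genes were ranked by the interval bound nearest 0 (15 highest and 10 lowest against other fibroblasts in both libraries, 12 and 12 between libraries), leaving out mitochondrial, ribosomal and sex-linked genes and the genes of the rule. Others come from the lists, and genes of the sub-clusters were named after their values had been seen. Sub-clusters are k-means (15 groups, 50 starts) on 20 principal components of 2000 variable genes (scanpy 1.11.5, scikit-learn 1.9.0). Doublets were not removed by a caller. Total UMIs were 30103855 and 17814222 in cells under 10% mitochondrial UMIs, and 1184389 and 661433 in members. The interval code was tested on simulated data. Gene positions are from GENCODE vM21. A gene that the rule for named genes would name is not reported here.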

Additional observations from a re-analysis of the deposited data

Results flagged for a closer look

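Among the 12 genes highest and the 12 lowest between the members of the libraries, ranked with or without the lineage limit, there were 5 whose log2 ratio of *SM22-SmoM2* over control had opposite signs in members and in the other fibroblasts, with both counting intervals away from 0. With 1 library a side the difference itself was not tested. The ratios were 1.87 in members and −1.32 in the others for *Pi16*, 1.55 and −0.65 for *Fibin*, and 1.41 and −3.92 for *Dlk1*, whose ratio in members was −0.35 when 2 of the 5 markers were asked for. They were −5.26 and 1.01 for *Krtdap* and −6.15 and 0.90 for *Sfn*, and 98.1% and 100% of the control members' UMIs of these 2 epidermal genes lay in 1 cell. Under the lineage limit no ratio could be taken for either in members.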

How the results depend on the processing

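The size of the set followed the rule. Members were 1.88% of control and 1.59% of *SM22-SmoM2* fibroblasts with cells thinned to 5000 UMIs before the fibroblast gate and the rule (against 1.94% and 1.64% where the gate was read before thinning), 0.887% and 0.566% at 3000 UMIs with the gate read before, 1.39% and 1.83% with 4 of 5 markers, 13.0% and 8.53% with 2 of 5, and 3.86% and 2.02% with 2 UMIs per 10000. Under the lineage limit the control share was 7.54% and the *SM22-SmoM2* share 4.50%, with intervals that do not overlap. The *SM22-SmoM2* share was 5.75% with the gate at 20 per 10000. Only with 4 of 5 markers was the *SM22-SmoM2* share the higher one among these settings. The leading sub-cluster held 44.4% of members with 10 sub-clusters. Genes 2-fold higher in members in both libraries numbered 134 by the mean of per-cell CPM, 39 with at least 200 UMIs and 253 with no low-count filter. Genes lower in both numbered 308 after thinning, 250 with at least 200 UMIs and 265 under the lineage limit. Between libraries, genes higher in *SM22-SmoM2* members numbered 29 after thinning, 144 with 2 of 5 markers, 20 with at least 200 UMIs and 659 with no filter. Genes lower numbered 20 after thinning, 60 with 4 of 5 markers, 103 in male cells alone, 39 with at least 200 UMIs, 1272 with no filter and 79 in the first sub-cluster alone. The cause was not tested, apart from the fewer cells or genes that thinning, stricter rules and filters leave by construction. Over 747 repeats of the named genes' values, 558 stayed within the main counting interval, 188 left it with the same sign (32 of 49 with 2 UMIs per 10000, 26 of 34 after thinning, 26 of 42 in the first sub-cluster alone, 23 of 49 with 4 of 5 markers, 21 of 41 under the lineage limit, and fewer elsewhere), and 1 changed sign, since *Dlk1* between libraries was −0.35 with 2 of 5 markers. Of the repeats that stayed, 49 with at least 200 UMIs and 49 with no low-count filter were fixed in advance. Those filters change which genes are counted and not the ratio of a gene. Another 49 came with no limit on *Agtr2*, which returned only 1 control cell. The lineage limit, the first sub-cluster and the other thinning depths were chosen after seeing the data. No paired analysis was possible because each group is 1 library and no result comes from a test.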
